A study of Ovis aries with 7 samples.

Results

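The cytosolic ribosomal protein genes were taken as every annotated feature whose symbol is RPL or RPS followed by a number, with an optional A, X, Y or L, together with *RPLP0*, *RPLP1*, *RPLP2* and *RPSA*. The rule found 57 of the 26479 features, and these carried 47 symbols. The large subunit supplied 33 features with 30 symbols, and the small subunit supplied 24 features with 17 symbols. *RPLP2*, which encodes an acidic stalk protein, is not among the annotated features. Of the 77 ribosomal protein symbols that the RefSeq table of another sheep assembly lists under the same rule, 32 name no feature here, and 9186 of the features have no symbol. The set is therefore a part of the ribosome's gene list, fixed by naming and not by any measured value.

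Each cytosolic ribosome is built from a large and a small subunit, in which ribosomal proteins and ribosomal RNA are held in fixed proportion. Ribosomal protein mRNAs begin with a terminal oligopyrimidine tract, and their translation is tuned together by mTOR signalling through LARP1. The mature mRNAs act in the cytoplasm, whereas single nuclei RNA sequencing reads the RNA that stays with an isolated nucleus, which is rich in unspliced transcripts.

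Nuclei came from the striatum of sheep aged 5 years. The *OVT73* line carries a full-length human *HTT* cDNA with an expanded polyglutamine-coding repeat under upstream sequence of the human gene, and the controls were wild-type sheep. Pools of 2 sheep made up the 3 *OVT73* libraries and controls 3 and 4, while controls 1 and 2 held 1 sheep each. The library was the replicate (n = 3 *OVT73* and n = 4 control), so that differences between the sheep of a pool are not seen, and *OVT73* is a single transgenic line.

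The 32599 nuclei kept, 17439 of them from *OVT73*, held 208431445 UMIs (unique molecular identifiers, each counting 1 captured transcript). A single *OVT73* library kept between 25371848 and 62927313 UMIs, and a control library between 18294515 and 24187554. The feature whose identifier is HTT held 0.946 to 4.69 CPM (UMIs scaled to a common library total) in *OVT73* and 0.0491 to 0.248 in control, and the sheep *HTT* feature (ENSOARG00020020229) held 84.8 to 95.7 and 83.4 to 109. Marker transcripts named 13 cell classes, called for instance D1 MSN-like (MSN, medium spiny neuron) or OPC-like (OPC, oligodendrocyte precursor cell), with 29845 nuclei. Endothelial-like nuclei numbered 3 to 15 in a library. Of the barcode sequences, 159 occurred in more than 1 library. *OVT73* nuclei were deeper, at a median of 2375 ± 169 UMIs (SD, n = 3) against 1961 ± 136 (SD, n = 4) in control, without overlap between the groups. D1 MSN-like nuclei of control 2 numbered 46, against 260 to 559 elsewhere, and an unnamed cluster of 259 nuclei came almost wholly from that library. The closest class of that cluster by markers was D1 MSN, and its nuclei are not in the D1 MSN-like sums. D2 MSN-like nuclei of control 2 numbered 55, against 226 to 518 elsewhere. Of these, 45.5% fell in the smaller cluster of the class, against 8.05% to 11.5% in the other libraries.

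Ribosomal protein transcripts were a small part of the nuclear RNA, at 496539 UMIs or 0.238% of all UMIs. They were spread over many genes: 45 features held more than 1000 UMIs each, and the 10 leading features together held 40.1% of the set's UMIs. Among the leading features were *RPLP1* with 30146 UMIs and *RPL31* with 20759, and *RPS19*, *RPL22*, *RPS27A*, *RPS18*, *RPL19*, *RPL32* and *RPL27A* with 14437 to 17551. A UMI count is not a level per transcript length, so that these counts do not rank the genes by abundance. At the other end, 11 features held fewer than 100 UMIs and 5 held none.

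Symbols that stand on several identifiers were carried almost wholly by 1 of them. *RPS25*, a small subunit protein, stands on 7 features, of which ENSOARG00020012764 held 10680 UMIs and the next held 15. *RPL17* stands on 4 features, of which ENSOARG00020011339 held 2513 UMIs and the next held 3. *RPS12* is the exception, with 9447 UMIs on ENSOARG00020020036 and 482 on ENSOARG00020003307. Ribosomal proteins have many processed pseudogene copies, and how reads were divided between near-identical sequences was not examined. Among the paralogs with an L suffix, *RPL3L*, known from heart and skeletal muscle, held 35 UMIs, and *RPL10L*, known from testis, held 4. *RPS27L*, a widely expressed paralog regulated by p53, held 3058 UMIs.

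The share of UMIs on these genes differed widely between cell classes. Classes were built by clustering, with the ribosomal protein genes left out of the clustering, and the order is a description without a test. Endothelial-like nuclei stood first, with a mean of 1.67% ± 0.72 (SD, n = 7 libraries), and by summed UMIs they ranked first in each of the 7 libraries. By the median share of a nucleus they did not rank first in *OVT73* libraries 1 and 2. There they had 0.546% and 0.439%, against 0.573% and 0.581% in microglia-like nuclei. Macrophage-like, microglia-like and neuroblast-like nuclei followed with 0.589% ± 0.180, 0.581% ± 0.090 and 0.557% ± 0.124. The SDs of these 3 classes overlapped, as did those of astrocyte-like (0.390% ± 0.023), oligodendrocyte-like (0.346% ± 0.059) and OPC-like nuclei (0.343% ± 0.096). The interneuron-like classes had 0.290% ± 0.079 (PV/Th), 0.247% ± 0.072 (SST/NPY) and 0.193% ± 0.090 (cholinergic). The medium spiny neuron classes had the smallest shares, at 0.182% ± 0.057 (D1), 0.180% ± 0.056 (D2) and 0.173% ± 0.059 (eccentric). The SDs of neighbours among these neuron classes overlapped, but the classes share their libraries. Within single libraries PV/Th ranked 6 to 9 of the 13 classes, SST/NPY 9 to 10, cholinergic 8 to 13 and the medium spiny neuron classes 10 to 13. PV/Th thus stood above SST/NPY, and SST/NPY above each medium spiny neuron class, in every library. Counted per nucleus the order was nearly the opposite, with 45.1 ± 15.1 ribosomal protein UMIs in D1 MSN-like, 44.6 ± 13.9 in D2 MSN-like and 35.6 ± 9.7 in eccentric MSN-like nuclei, against 23.9 ± 10.3 in endothelial-like, 8.68 ± 1.28 in microglia-like, 8.65 ± 2.16 in neuroblast-like and 6.93 ± 1.21 in oligodendrocyte-like nuclei (SD, n = 7 libraries). The classes with small shares were those with deep nuclei, as a D1 MSN-like nucleus held a mean of 27751 UMIs in *OVT73* and an endothelial-like nucleus 1534.

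**Figure D1:**
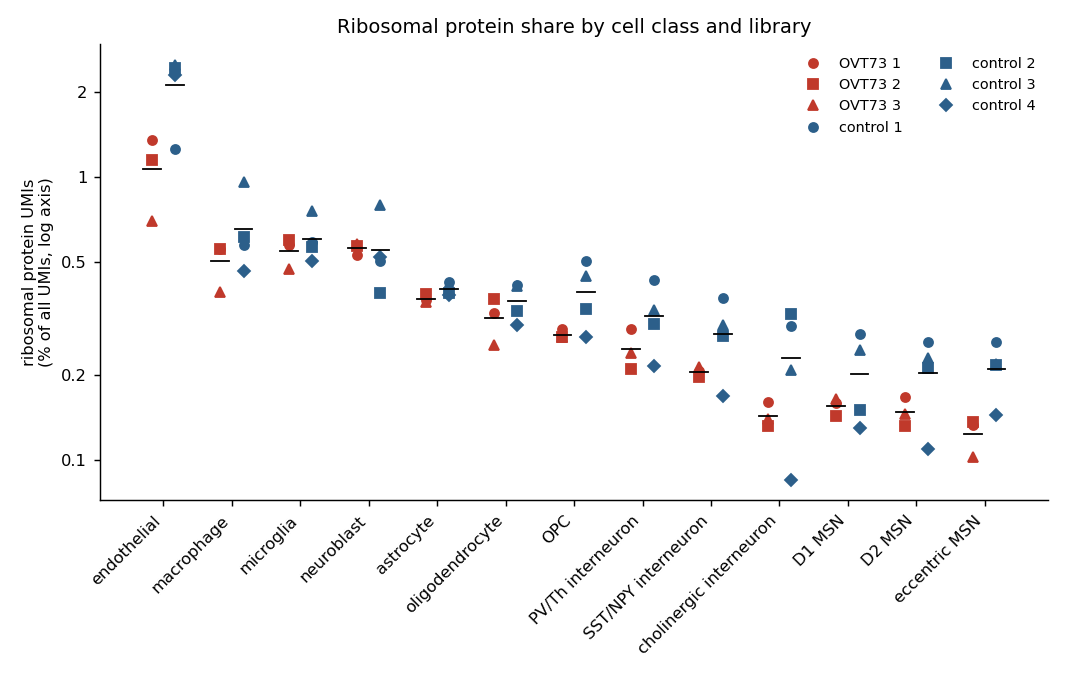
Ribosomal protein UMIs as a percentage of all UMIs (log axis) in the 13 named cell classes, ordered by their mean. Each point is a library, red for *OVT73* and blue for control, and black bars are group means. Endothelial-like nuclei have the highest share (mean 1.67%) and eccentric MSN-like nuclei the smallest (0.173%), the latter being the class in which no *OVT73* library reaches a control library.

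Among single members, *RPLP1*, a protein of the acidic stalk that recruits elongation factors, had 90.7 ± 34.7 CPM (SD, n = 7 libraries) in D2 MSN-like nuclei, 253 ± 87 in OPC-like nuclei, 377 ± 74 in microglia-like nuclei and 1392 ± 1088 in endothelial-like nuclei. In all, 43 of the 57 features had their highest mean level in the endothelial-like class. The 57 include the 5 features without UMIs, and the class held only 3 to 15 nuclei in a library. The same count over all genes is not given here, so that the 43 are a description only. Among members above 1000 UMIs, the exceptions were *RPL17*, highest in microglia-like nuclei, and *RPL4* and *RPSA*, highest in macrophage-like nuclei. Large subunit UMIs exceeded small subunit UMIs in every class, by a mean ratio of 1.38 ± 0.10 (SD, n = 7) in microglia-like to 1.67 ± 0.30 in cholinergic interneuron-like nuclei. The set holds 30 large and 17 small subunit symbols, so that these ratios of sums do not compare levels per gene. The *OVT73* and control ratios overlapped in all 13 classes.

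Within a class, the share went down as the nucleus held more UMIs. Nuclei of each of the 9 classes with at least 10 nuclei in every library were divided into 4 equal depth bins by their UMI total. In D1 MSN-like nuclei the mean share over the 7 libraries was 0.373% in the shallowest bin and 0.0911% in the deepest, in OPC-like nuclei it was 0.566% and 0.199%, and in oligodendrocyte-like nuclei 0.584% and 0.221%. The oligodendrocyte-like class joins clusters that differ in both depth and share. Its main cluster had a median of 1481 UMIs and a mean share of 0.450%, and its second 2827 UMIs and 0.221%. The bins were not cut within clusters. Since the share has the UMI total as its denominator, the number of ribosomal protein UMIs in a nucleus was set beside it. D1 MSN-like nuclei of the 4 bins held 41.7 ± 15.3, 50.5 ± 14.3, 48.8 ± 17.2 and 43.1 ± 12.6 ribosomal protein UMIs (SD, n = 7 libraries). Over the same bins the mean total went from 11066 to 47245 UMIs. The number of ribosomal protein UMIs was thus nearly level across a range of totals in which other genes accumulated.

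The ratio of the deepest to the shallowest bin puts the comparison on a single scale. For D1 MSN-like nuclei it was 4.27 for all features and 1.03 for ribosomal protein genes. It was 1.89 for oxidative phosphorylation subunits, 1.90 for mitochondrially encoded features, 2.83 for mitochondrial ribosomal proteins, 3.08 for proteasome subunits, 3.47 for translation initiation factors and 4.64 for mTOR and S6 kinase signalling. In D2 MSN-like nuclei it was 1.04 for ribosomal protein genes and 4.14 for all features, and in OPC-like nuclei 1.30 and 3.69. Neuroblast-like nuclei came closest to proportional growth, at 2.69 and 4.10. The pattern extended over the members: in D1 MSN-like nuclei all 46 members with enough counts had a smaller share in the deepest than in the shallowest bin, with a median log2 ratio of -2.06 against -0.23 over all 12194 genes. Every such member was lower in the deepest bin in 8 of the 9 classes, and 39 of 41 were in neuroblast-like nuclei. Over all genes, 44.7% (neuroblast-like) to 65.6% (D1 MSN-like) were lower in the deepest bin.

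**Figure D2:**
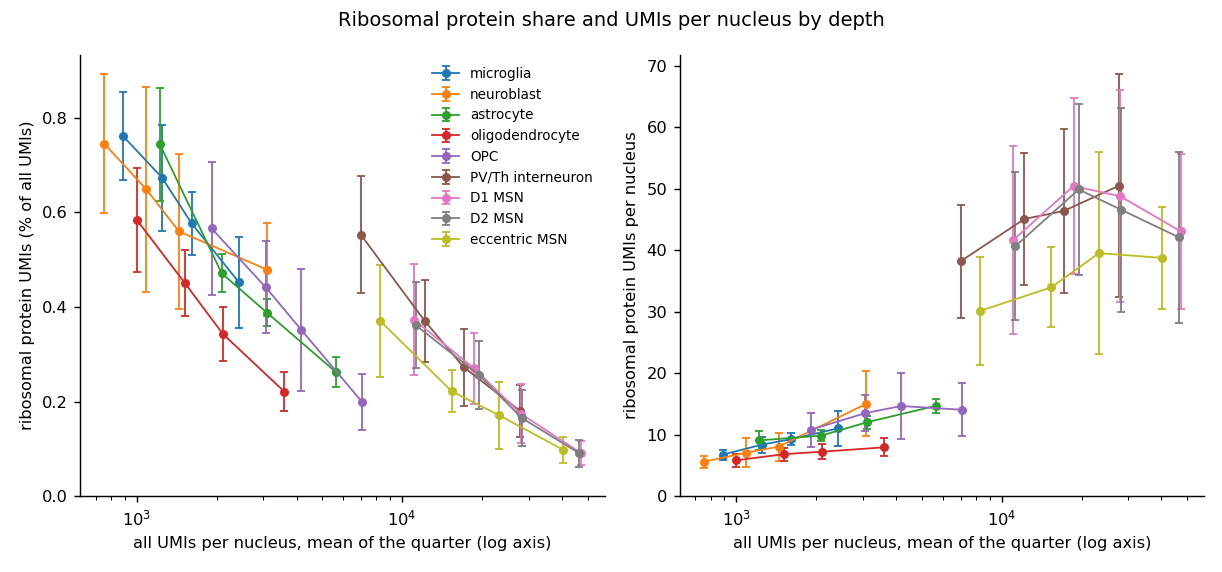
Ribosomal protein UMIs by depth of the nucleus in 9 cell classes, as a percentage of all UMIs (left) and as a number per nucleus (right). Each point is a depth bin of the nuclei of a class, placed at its mean UMI total (log axis), as mean and SD of the 7 libraries. The share declines in every class (D1 MSN-like, 0.373% to 0.0911%), while the number per nucleus stays nearly level in D1 MSN-like nuclei (41.7 and 43.1).

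The summed share in *OVT73* was compared with that in control in each class, by its values and without a test. Over all nuclei kept, the *OVT73* libraries 1 to 3 had 0.228%, 0.198% and 0.204%, and the control libraries 1 to 4 had 0.332%, 0.281%, 0.317% and 0.184%. The means were 0.210% ± 0.016 (SD, n = 3) and 0.278% ± 0.067 (SD, n = 4). The groups overlapped, because control library 4 lay below every *OVT73* library. Each of these shares rests on at least 44459 ribosomal protein UMIs, and the Wilson 95% interval of control library 4, which covers counting error only, was 0.182% to 0.186%. The spread between libraries was thus much wider than the counting error.

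Eccentric MSN-like nuclei, a minor class of medium spiny neurons, were the only one of the 13 classes in which the groups did not overlap in the share of summed UMIs. Their share was 0.133%, 0.137% and 0.102% in the *OVT73* libraries and 0.262%, 0.216%, 0.219% and 0.144% in the control libraries. The means were 0.124% ± 0.019 (SD, n = 3) and 0.210% ± 0.049 (SD, n = 4), which is a log2 ratio of -0.76. The class held 24 to 73 nuclei in a library. Its nuclei were also deeper in *OVT73*, with a median of 22557 ± 3937 UMIs against 16032 ± 3600, although these medians overlapped. In nuclei of middle depth, between the 25th and the 75th percentile of the class, the shares were 0.141% ± 0.040 and 0.226% ± 0.051, and the groups overlapped. They also overlapped in nuclei with at most 1% mitochondrial UMIs, where control 4 had 0.0868% and the *OVT73* libraries 0.0826% to 0.117%. Both subsets are small. At middle depth a library held 13 to 36 nuclei of the class, and under the mitochondrial limit 10 (control 4) to 47. The mean of the per-nucleus shares kept the groups apart in eccentric MSN-like nuclei (0.166% ± 0.011 and 0.280% ± 0.064) and set them apart in endothelial-like nuclei too (0.936% ± 0.194 and 2.15% ± 0.35), which are few. In the D1 MSN-like class the groups did not overlap when ribosomal protein genes were allowed among the variable genes for clustering, at 0.1502% to 0.212% and 0.223% to 0.353% (log2 ratio -0.68, against -0.37 with them left out). Under that clustering control 2 contributed 147 D1 MSN-like nuclei with a share of 0.263%, in place of 46 nuclei with 0.1499%. Control 4, the lowest control under both clusterings, contributed 195 nuclei with 0.223%, in place of 322 nuclei with 0.1298%. *OVT73* library 3, the highest of its group under both, had 0.212% in place of 0.165%. That clustering drew the class with 7 of the members whose share is compared, and the effect of this on the gap was not tested.

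In eccentric MSN-like, D1 MSN-like, OPC-like and oligodendrocyte-like nuclei, the number of ribosomal protein UMIs in a nucleus differed less between the groups than the share. It was 30.1 ± 8.5 in *OVT73* and 39.7 ± 9.3 in control in eccentric MSN-like nuclei, a log2 ratio of -0.40 with overlapping groups. The corresponding means were 43.4 and 46.4 in D1 MSN-like, 12.2 and 14.3 in OPC-like, 6.94 and 6.92 in oligodendrocyte-like and 11.9 and 10.5 in astrocyte-like nuclei. In astrocyte-like nuclei the number differed more than the share and in the other direction, with log2 ratios of 0.18 and -0.12. The groups overlapped in all 13 classes. Mean UMI totals of a nucleus were higher in *OVT73* in each of these 5 classes, for instance 24349 ± 5583 against 19025 ± 2142 in eccentric MSN-like nuclei, and the part of depth in the shares was not tested further.

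In OPC-like nuclei the *OVT73* share was 0.278% ± 0.010 (0.271% to 0.289%) and the control share 0.392% ± 0.105 (0.273% to 0.506%). D1 MSN-like nuclei had 0.156% ± 0.012 and 0.201% ± 0.072, D2 MSN-like nuclei 0.148% ± 0.018 and 0.203% ± 0.066, and PV/Th interneuron-like nuclei 0.246% ± 0.041 and 0.322% ± 0.090. In each of these 4 classes the control libraries spread over a wider range than the *OVT73* libraries, and the groups overlapped. The shares lay closer in oligodendrocyte-like (0.319% ± 0.060 and 0.366% ± 0.058), microglia-like (0.5496% ± 0.069 and 0.604% ± 0.107) and astrocyte-like nuclei (0.372% ± 0.012 and 0.403% ± 0.021). Neuroblast-like nuclei had 0.560% ± 0.025 and 0.554% ± 0.174. Within the depth bins the 2 groups overlapped throughout the 9 classes except in bin 2 of eccentric MSN-like nuclei.

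Each member with enough counts was then tested in the summed counts of a class with edgeR's quasi-likelihood test, adjusted over all genes tested in that class. The filter on low counts kept 41 to 46 of the 57 features in a class, and the 11 features with fewer than 100 UMIs were tested in none. No member passed an adjusted p of 0.05 in any of the 9 classes, and none did by DESeq2, which gave no adjusted p for 5 members in OPC-like nuclei. Of all genes, DESeq2 called 0.0991% in OPC-like, 0.0664% in oligodendrocyte-like, 0.0342% in D2 MSN-like, 0.0203% in neuroblast-like, 0.0146% in eccentric MSN-like and 0.0082% in D1 MSN-like nuclei, and 0% in the other 3 classes. In that respect the members did not differ from the background, since edgeR called 0% of all genes in 8 classes and 0.011% in OPC-like nuclei. With an unadjusted p under 0.05 as the threshold, 25 of 41 members were marked by edgeR in eccentric MSN-like nuclei, where 7.03% of all genes were, and 11 of 44 in OPC-like nuclei, where 6.56% were. It marked 6 of 42 in PV/Th interneuron-like nuclei against 3.64% of all genes, and 1 of 46 in D1 MSN-like nuclei against 2.52%. Among microglia-like nuclei the count was 2 of 44 against 4.2%, in astrocyte-like nuclei 1 of 43 against 4.8%, and in oligodendrocyte-like nuclei 1 of 46 against 5.22%. None was marked among 46 in D2 MSN-like nuclei (4.18% of all genes) or among 41 in neuroblast-like nuclei (3.88%). All the members marked had a log2 fold change below 0. By DESeq2 the counts were 23 in eccentric MSN-like nuclei (4.41% of all genes), 14 in OPC-like (4.77%), 4 in PV/Th interneuron-like (2.34%) and 2 in D2 MSN-like nuclei (3.45%). DESeq2 marked 1 member each in astrocyte-like (3.31% of all genes), microglia-like (2.6%) and oligodendrocyte-like nuclei (4.6%), and 0 in D1 MSN-like (2.12%) and neuroblast-like nuclei (2.84%).

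The direction of the fold changes varied with the class. The log2 fold change (*OVT73* against control) was below 0 for 40 of 41 members in eccentric MSN-like nuclei and 43 of 44 in OPC-like nuclei. The D1 and D2 MSN-like classes had 41 and 40 of 46 members below 0, and PV/Th interneuron-like nuclei had 37 of 42. The counts were 36 of 46 for oligodendrocyte-like, 31 of 44 for microglia-like, 25 of 43 for astrocyte-like and 17 of 41 for neuroblast-like nuclei. Over all genes tested, 50.7% to 56.6% were below 0 in the 9 classes. The median log2 fold change of the members was -0.69 in eccentric MSN-like, -0.36 in OPC-like, -0.30 in D2 MSN-like, -0.29 in PV/Th interneuron-like and -0.24 in D1 MSN-like nuclei. It was -0.09 in oligodendrocyte-like, -0.06 in microglia-like, -0.03 in astrocyte-like and 0.06 in neuroblast-like nuclei, and the median of all genes lay between -0.04 and -0.01 in every class. Large and small subunit genes had like medians, for instance -0.68 over 26 large subunit and -0.69 over 15 small subunit members in eccentric MSN-like nuclei. The members are measured in the same libraries and their counts move together, so that these counts are not independent observations. The fold changes are relative to the UMIs of all genes in the class, as the shares are.

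**Figure D3:**
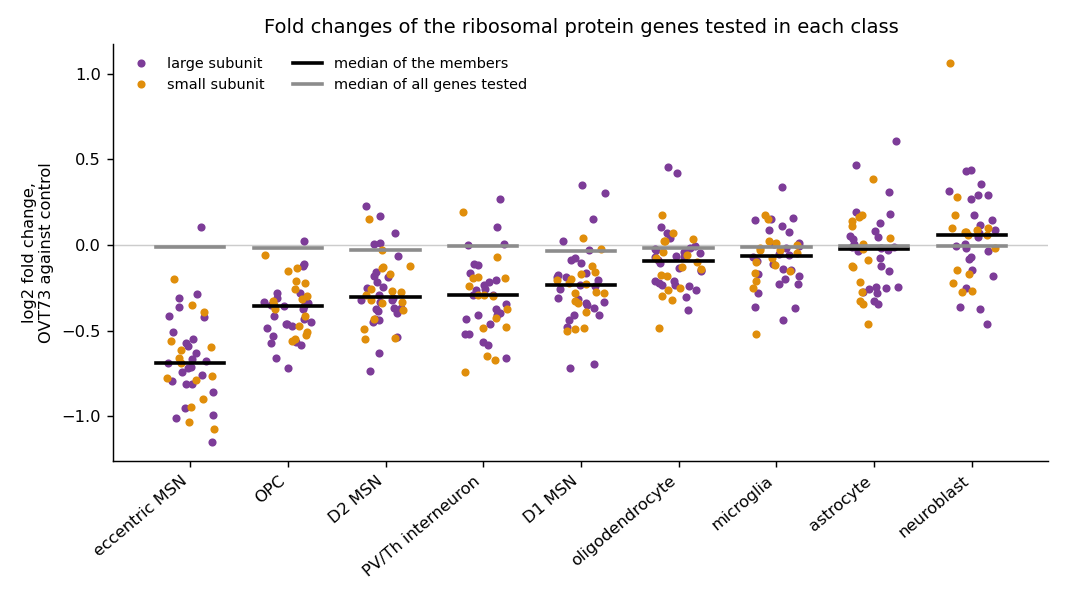
Log2 fold changes of the ribosomal protein genes tested in each class, *OVT73* against control, by edgeR. Each point is a gene, purple for the large and orange for the small subunit, and bars give the median of the members (black) and of all genes tested (grey). The members' median is -0.69 in eccentric MSN-like and 0.06 in neuroblast-like nuclei, and no member passed the adjusted threshold.

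Eccentric MSN-like nuclei held the members with the least overlap. Every *OVT73* library lay below every control library for 14 of the 41 members, where the same was true of 4% of all genes, and no member had every *OVT73* library above control (3.41% of all genes). CPM are given after TMM normalization, in the order of the *OVT73* libraries 1 to 3 and the control libraries 1 to 4.

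Members of the large subunit are given first. *RPL26*, which lies near the exit of the peptide tunnel, had 20.9, 22.6 and 18.5 CPM in *OVT73* and 51.1, 38.3, 42.2 and 35.3 in control (log2 fold change -0.99, SE 0.25, edgeR adjusted p = 0.516, exact two-sided permutation p = 0.0286). This permutation p is the smallest that 3 against 4 libraries allow. *RPL18* had 27.6, 22.6 and 25.0 CPM against 49.0, 61.5, 58.4 and 35.3, a log2 fold change of -1.01. *RPL31*, another protein near the tunnel exit, had 65.6, 65.9 and 49.0 CPM against 124, 98.4, 122 and 85.2, a log2 fold change of -0.81. In each of these genes control library 4 was the lowest control, and it stayed above the *OVT73* libraries.

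The small subunit held similar values. *RPS23*, which lies at the decoding centre, had 19.5, 31.5 and 18.5 CPM against 72.4, 38.3, 53.5 and 32.3 (log2 fold change -1.08, SE 0.31, edgeR adjusted p = 0.516). *RPSA*, the protein also known as the laminin receptor precursor, had 36.6, 24.6 and 31.4 CPM against 55.4, 53.3, 47.0 and 44.1. For *RPS12* the gap was narrow, at 21.9, 20.7 and 20.3 CPM in *OVT73* and 49.0, 58.8, 43.8 and 22.0 in control. The members without overlap also included *RPL28*, *RPL14*, *RPL9*, *RPLP0* and *RPL4*. *RPL28* stood furthest below 0 of all members named, with 26.6, 15.7 and 18.5 CPM against 66.0, 34.2, 58.4 and 32.3 (log2 fold change -1.15, SE 0.31).

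Members with special roles were also read in this class. *RPLP0*, the base of the stalk, had 18.1, 11.8 and 10.2 CPM in *OVT73* and 19.2, 36.9, 24.3 and 19.1 in control (log2 fold change -0.86, SE 0.34, edgeR adjusted p = 0.673), so that its groups were apart by a narrow margin. *RPLP1* had 83.6, 75.8 and 53.6 CPM against 172, 119, 154 and 60.2, and *RPS27A* had 32.8, 56.1 and 28.7 against 93.7, 77.9, 85.9 and 42.6. For both, control 4 lay within the *OVT73* range and the other controls lay above it. *RPS6* had 23.3, 20.7 and 12.02 CPM against 66.0, 23.2, 22.7 and 26.4, and its groups overlapped narrowly. *RPL27* was the member with a log2 fold change above 0 (0.11, SE 0.53). Of the members named in the comparisons of *OVT73* with control, *RPL26*, *RPL18*, *RPS23*, *RPL27*, *RPL28*, *RPL9*, *RPL29*, *RPL37*, *RPL37A* and *RPL13* were chosen after their values were seen.

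Marker transcripts were measured in the same sums. In eccentric MSN-like nuclei the summed endothelial markers were 0.0040% to 0.0043% of UMIs in *OVT73* and 0.0051% to 0.0069% in control, and the PV/Th interneuron markers were also without overlap. Of the 11 endothelial markers *CLDN5* was at 0 in every library of the class. The groups overlapped for the other 18 lists, among them the markers of the class itself (0.335% to 0.374% and 0.307% to 0.447%), and for mitochondrial UMIs (0.573% to 0.985% and 0.441% to 1.495%). Their part in the ribosomal protein difference was not tested.

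OPC-like nuclei held 5 of 44 members with every *OVT73* library below every control library, against 3.31% of all genes, and none with every library above (4.28%). *RPL8*, a protein near the peptidyl transferase centre, had 47.9, 38.8 and 45.02 CPM against 87.9, 69.2, 72.9 and 48.1 (log2 fold change -0.66, SE 0.20, edgeR adjusted p = 0.652). *RPSA* (63.2, 69.1 and 86.9 against 114, 103, 99.4 and 86.9 CPM), *RPL29* and *RPL18* were also among them, with log2 fold changes of -0.48, -0.41 and -0.33. The values of *OVT73* library 3 and control library 4 for *RPSA* differed only beyond the printed digits. *RPL38* was the member above 0, with 38.7, 30.8 and 20.9 CPM against 35.04, 22.1, 53.0 and 15.1 and a log2 fold change of 0.02, which was -0.082 with library totals in place of TMM. In these sums the OPC markers were 2.74% to 2.92% of UMIs in *OVT73* and 2.53% to 2.64% in control, and the MSN markers 0.163% to 0.175% and 0.148% to 0.158%, both without overlap, and their part in the ribosomal protein values was not tested.

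In D1 and D2 MSN-like nuclei few members had groups without overlap, although most had a log2 fold change below 0. In D1 MSN-like nuclei *RPSA* was the one member with every *OVT73* library below control, at 33.7, 37.6 and 38.3 CPM against 49.8, 46.5, 47.7 and 39.3 (log2 fold change -0.33, SE 0.14, edgeR adjusted p = 1.00, exact two-sided permutation p = 0.0571), where 1.81% of all genes were so placed. *RPL17* was the one member with every library above control, at 9.44, 11.1 and 10.6 CPM against 7.62 to 9.399 (log2 fold change 0.30, SE 0.21), against 2.13% of all genes. *RPS12* (ENSOARG00020020036), the next by p, had 32.1, 26.2 and 28.8 CPM against 56.8, 34.9, 47.0 and 24.4, and here the groups overlapped through control 4. In D2 MSN-like nuclei no member was without overlap in either direction (2.37% of all genes lower and 3.05% higher). *RPL31* had 78.0, 67.9 and 70.8 CPM in *OVT73* and 124, 95.6, 141 and 57.7 in control, with a log2 fold change of -0.54 (SE 0.26, edgeR adjusted p = 0.977), and *RPL14* had a log2 fold change of -0.45 (SE 0.23). *RPL34* and *RPL4*, large subunit members of low count, were above 0 in both classes, at 0.35 and 0.15 in D1 and 0.23 and 0.17 in D2. The members furthest below 0 in both classes were *RPL37* (-0.72 and -0.74) and *RPL37A* (-0.70 and -0.63), each with overlapping groups and SEs of 0.39 to 0.45.

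In PV/Th interneuron-like nuclei *RPS23* was the one member without overlap, at 36.0, 40.9 and 38.4 CPM against 79.2, 54.9, 65.6 and 46.3 (log2 fold change -0.67, SE 0.23, edgeR adjusted p = 1.00), where 2.23% of all genes had every *OVT73* library below control and 2.84% above. *RPS27A* had 75.8, 67.1 and 82.6 CPM against 146, 130, 130 and 67.7 and a log2 fold change of -0.65 (SE 0.24). Control 4 lay within the *OVT73* range there, and the other 3 control libraries did not.

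The members' medians lay nearer to 0 in astrocyte-like, microglia-like, oligodendrocyte-like and neuroblast-like nuclei. In astrocyte-like nuclei *RPL14* had 97.6, 97.5 and 110 against 149, 119, 112 and 137 (log2 fold change -0.35, SE 0.17, edgeR adjusted p = 0.999), the one member of this class with every *OVT73* library lower (2.45% of all genes, and 3.08% higher). *RPS16* and *RPL17* stood at 0.38 and 0.47, with overlapping groups. In microglia-like nuclei *RPL11*, a protein that binds MDM2 when ribosome assembly is disturbed, stood at -0.44 and *RPL10A* at -0.36, the latter with every *OVT73* library lower (2.43% of all genes, and 2.99% higher). *RPL17* stood at 0.34 and *RPLP1* at 0.11.

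In oligodendrocyte-like nuclei no member was without overlap (3.12% of all genes lower and 3.49% higher). *RPSA* had 68.3, 80.5 and 68.3 CPM in *OVT73* and 137, 102, 89.9 and 77.4 in control (log2 fold change -0.49, SE 0.18, edgeR adjusted p = 0.880), and *RPL10A* stood at -0.38, *RPL4* at 0.45 and *RPL34* at 0.42. The 3 clusters of this class differed in their share, at 0.397% and 0.489% (*OVT73* and control means) in the main cluster, 0.216% and 0.225% in the second and 0.294% and 0.302% in the third. In neuroblast-like nuclei *RPS27L* had 42.5, 42.7 and 41.3 CPM in *OVT73* and 18.4, 0, 9.02 and 36.0 in control (edgeR adjusted p = 1.00, exact two-sided permutation p = 0.0571). It was the one member with every *OVT73* library higher (2.72% of all genes, and 2.23% lower), and with 72 UMIs in the whole class it rests on few counts.

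Followed across classes, *RPSA* had a log2 fold change below 0 in 9 of 9 classes, from -0.66 to -0.03. Among members chosen for their roles, *RPS27A* encodes ubiquitin fused to a small subunit protein and was below 0 in 8 of 9 classes, from -0.94 to 0.11. *RPLP0* and *RPLP1*, which form the base and a part of the stalk, were below 0 in 5 and 7 of 9 classes. *RPS6*, the small subunit protein phosphorylated by S6 kinase, was below 0 in 5 of 9, from -0.79 to 0.28. *RPL34*, tested in 3 classes, was above 0 in each, and *RPL13* and *RPL4* were below 0 in 3 of 9. None of these genes passed the adjusted threshold in a class.

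**Figure D4:**
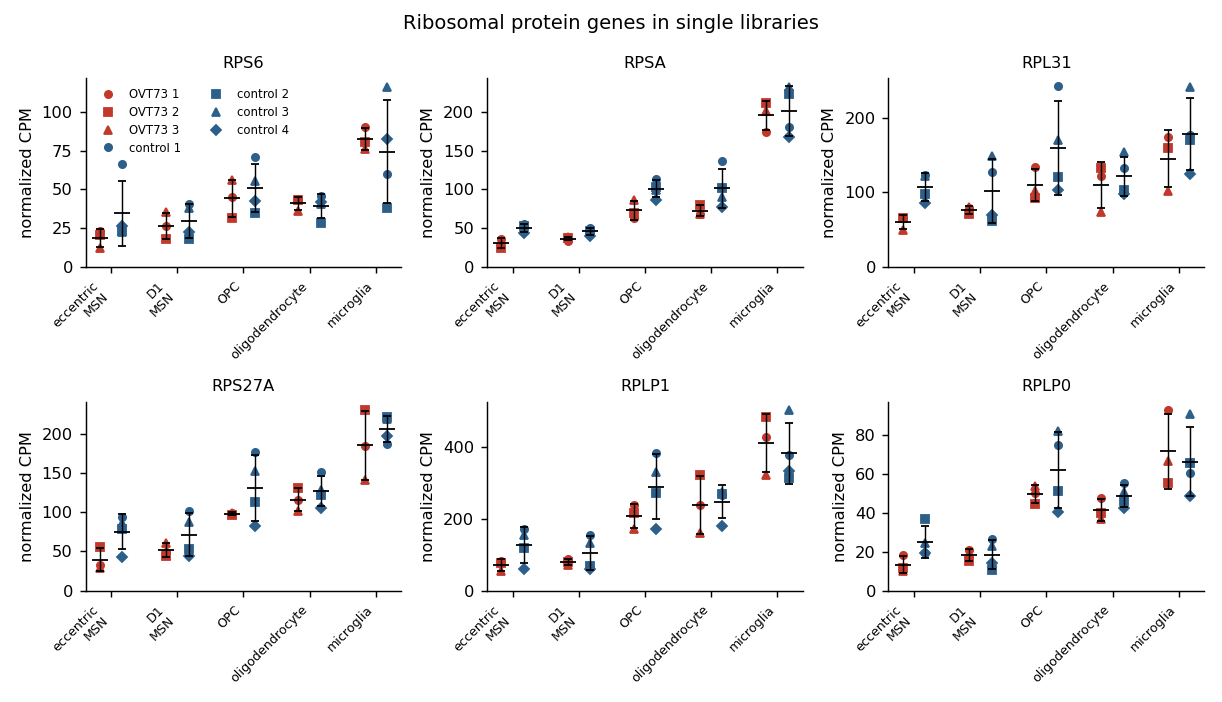
TMM-normalized CPM of 6 ribosomal protein genes in 5 cell classes. Each point is a library, red for *OVT73* and blue for control, and black marks are group means with the SD. *RPSA* in eccentric MSN-like nuclei lies at 24.6 to 36.6 in *OVT73* and at 44.1 to 55.4 in control, whereas *RPLP1* in microglia-like nuclei overlaps.

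The control libraries also differed among themselves. In D1 MSN-like nuclei the median member stood at a log2 of 0.46 against the control mean in control 1, -0.27 in control 2, 0.14 in control 3 and -0.60 in control 4, and at -0.13, -0.31 and -0.20 in the *OVT73* libraries. In eccentric MSN-like nuclei the controls stood at 0.29, 0.11, -0.02 and -0.52 and the *OVT73* libraries at -0.55, -0.50 and -1.04. Controls 1 and 3 were above control 4 for 38 to 46 of the 41 to 46 members in the 3 MSN-like classes, in OPC-like and in PV/Th interneuron-like nuclei, where 47.7% to 51.1% of all genes were. This pair of contrasts was chosen after the values were seen. The same held in oligodendrocyte-like nuclei for 43 and 41 of 46 members. Control 3 was above control 4 for 42 of 44 members in microglia-like and 36 of 41 in neuroblast-like nuclei, where control 1 was for 26 and 20. In astrocyte-like nuclei control 1 was above control 4 for 26 of 43 members and control 3 for 23. Control 1 held 1 sheep, and controls 3 and 4 held 2 each. Control 4 also had the highest mitochondrial share of all libraries in OPC-like, microglia-like and D1 MSN-like nuclei. It was 1.177% in OPC-like nuclei (0.2503% to 0.8811% elsewhere) and 2.772% in microglia-like nuclei (0.7466% to 2.058%). In D1 MSN-like nuclei it was 1.006% (0.4382% to 0.8432%). The part of the mitochondrial share in the differences between controls was not tested.

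Leaving out single libraries moved the counts. The count of members marked at an unadjusted p under 0.05 in eccentric MSN-like nuclei, 25 with all libraries, was 15 without *OVT73* library 3 (5.73% of all genes), 15 without control 1 (6.30%) and 16 without control 2 (9.54%), where 7.03% of all genes were marked with all libraries. The count in OPC-like nuclei, 11 with all libraries, was 4 without control 1 (6.03% of all genes), 7 without *OVT73* library 1 (4.83%), 7 without control 3 (5.60%) and 29 without control 4 (6.28%). Without control 1 the members' median for the D1 and D2 MSN-like classes was -0.03 and -0.14. In eccentric MSN-like nuclei the median stayed between -0.79 and -0.56 whichever library was left out.

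**Figure D5:**
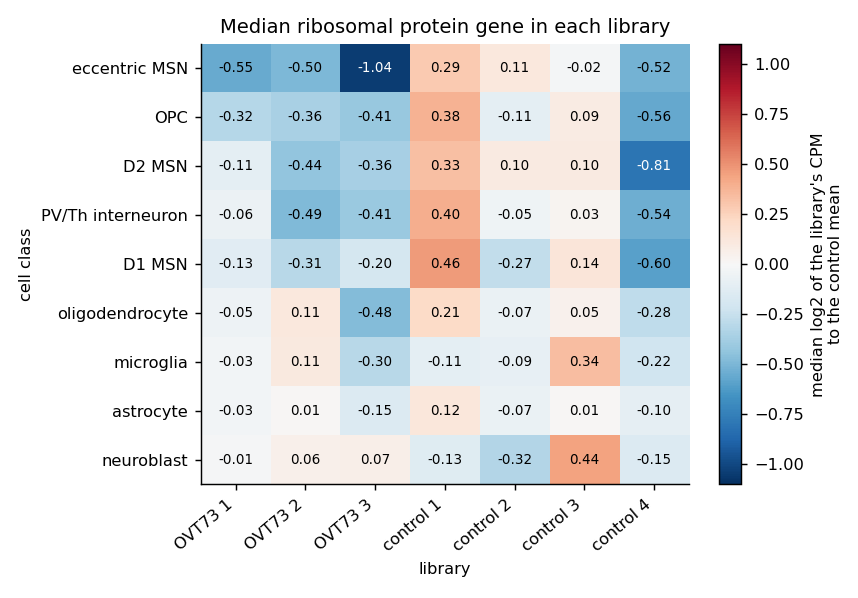
Median ribosomal protein gene of each library in 9 cell classes, as the log2 of its TMM-normalized CPM to the mean of the control libraries. Blue is below and red above the control mean. Control 4 stands at -0.60 in D1 MSN-like, -0.81 in D2 MSN-like and -0.56 in OPC-like nuclei, and control 1 at 0.46, 0.33 and 0.38.

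Other parts of the translation machinery were measured in the same sums. *FAU* encodes a ribosomal protein fused to a ubiquitin-like protein, and *RACK1* encodes a scaffold on the small subunit. In OPC-like nuclei *FAU* had 45.9, 48.8 and 58.3 CPM against 101, 59.4, 81.7 and 62.5 (log2 fold change -0.59, SE 0.19, edgeR adjusted p = 0.690), without overlap. *RACK1* stood at -0.45 in eccentric MSN-like and -0.15 in OPC-like nuclei and above 0 in 4 classes, at 0.34 in astrocyte-like, 0.21 in neuroblast-like, 0.11 in D2 MSN-like and 0.07 in D1 MSN-like nuclei. *EEF1A2*, the elongation factor of mature neurons, was at -0.28 in eccentric MSN-like nuclei and 0.25 in D1 MSN-like nuclei, with overlapping groups.

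No gene of the 10 lists set beside the ribosomal proteins passed the adjusted threshold in any class. In eccentric MSN-like nuclei the median log2 fold change was -0.45 over 49 oxidative phosphorylation subunits, -0.16 over 20 proteasome subunits, -0.15 over 31 initiation factors, -0.11 over 22 ribosome biogenesis genes, -0.10 over 28 mitochondrial ribosomal proteins and 0.14 over 13 genes of mTOR and S6 kinase signalling. Elongation and termination factors stood at -0.17 over 7 genes, other mRNAs with a terminal pyrimidine tract at -0.46 over 4, and the 3 ribosomal parts with other names at -0.60. In OPC-like nuclei the oxidative phosphorylation subunits stood at -0.23 over 59 genes and mTOR and S6 kinase signalling at 0.03 over 13, while the 3 ribosomal parts with other names stood at -0.44 and the 5 other mRNAs with a terminal pyrimidine tract at -0.38, both further below 0 than the members' median of -0.36. The single paralog tested among those with other suffixes, *RPL36AL*, stood at -0.09 in eccentric MSN-like nuclei.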

How the data were processed

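Nuclei from 7 libraries were sequenced by droplet single nuclei RNA-seq. The deposited matrices hold raw UMI counts per feature and barcode, which the authors made with Cell Ranger 7.0.0 and STAR 2.7.2a, per the submitters' processing notes. Of the 35272 barcodes, nuclei were kept where 200 to 7500 genes were detected and mitochondrial UMIs did not exceed 5%, and the top 4% of simulated-doublet scores in each library (1358 nuclei) were removed. Counts were clustered without the ribosomal protein genes, on 3000 variable genes and 30 principal components, with library correction by an own implementation of Harmony. The clustering used 20 neighbours, Louvain resolution 1 and seed 1. It gave 32 clusters, of which 14 stayed unnamed. An earlier naming rule was replaced after its names were seen, and the thresholds of the final rule were set after cluster marker profiles, and before any comparison of groups, were seen.

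UMIs were summed by class and library. For 9 classes, each with 10 or more nuclei per library, edgeR 4.0.16 (R 4.3.3; TMM, filterByExpr, robust quasi-likelihood test, Benjamini-Hochberg adjustment over all genes tested, threshold 0.05) compared *OVT73* with control, and DESeq2 1.42.0 was an alternative. The edgeR step was also run on counts simulated from OPC-like means, with a single dispersion and genes drawn independently. Differences between libraries that many genes share were not simulated. Single genes were also compared by an exact two-sided permutation test of their normalized CPM over the libraries, with 35 arrangements (scipy 1.17.1). Intervals of shares are Wilson 95% intervals. The study assigned pooled nuclei to single sheep by their genetic variants and tested nuclei with MAST, a test based on a mixed model. Here the library was the unit, since the sample labels do not separate pooled sheep, and p-values measure the spread between libraries.

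The members and gene lists were chosen with earlier results of these data known. Members named were the 10 with the most UMIs, the 2 with the smallest p in each direction in 6 classes, those past the threshold, those on several identifiers or with an L suffix, and *RPLP0*, *RPLP1*, *RPSA*, *RPS6* and *RPS27A* for their roles. Alternatives changed the test, normalization, filters, nuclei, libraries and clustering. No sequences or coordinates were used here. Some members that the naming rule covers are not reported here by name, although they are in the counts and medians.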

Additional observations from a re-analysis of the deposited data

Results flagged for a closer look

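One of the 37 groups of control libraries looked at held a library that stood apart by Dixon's criterion, which flags about 1 group in 20 by chance. In endothelial-like nuclei the summed ribosomal protein share was 1.26% in control 1 and 2.44%, 2.49% and 2.29% in controls 2 to 4, and the gap to the nearest library was 0.834 of the range. Control 1 held 6 endothelial-like nuclei and the other controls 3, 7 and 3. The *OVT73* libraries had 1.35%, 1.15% and 0.699% in 15, 8 and 8 nuclei. The class was too small for the test across genes.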

How the results depend on the processing

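No ribosomal protein gene was called in any class under the alternatives run, with 1 exception: without a filter beyond 1 UMI, 1 gene was called in eccentric MSN-like nuclei (*RPL19*, log2 fold change -0.85, edgeR adjusted p = 0.0416). Of the alternative values of the members' median, 150 moved by less than the spread between libraries and 3 by more, namely -0.18 (at most 1% mitochondrial UMIs) and 0.15 (nuclei of middle depth) in astrocyte-like nuclei and -0.28 (at most 1% mitochondrial UMIs) in neuroblast-like nuclei. The log2 ratio of the summed share moved to -0.19 and 0.077 in astrocyte-like nuclei under the first 2 of these. The mitochondrial limit left 32 astrocyte-like and 11 neuroblast-like nuclei in control 4. In the 5 libraries that pool 2 sheep the median was 0.022 in D2 MSN-like, -0.014 in D1 MSN-like, -0.036 in PV/Th interneuron-like and -0.40 in eccentric MSN-like nuclei, and over all alternatives it turned above 0 at most to 0.045 in microglia-like and 0.067 in oligodendrocyte-like nuclei. With ribosomal protein genes among the variable genes it was -0.51 in D1 MSN-like nuclei. Leaving out each library in turn gave medians of -0.79 to -0.56 in eccentric MSN-like, -0.53 to -0.23 in OPC-like, -0.50 to -0.14 in D2 MSN-like and -0.40 to -0.03 in D1 MSN-like nuclei. It gave 15 to 28 members at an unadjusted p under 0.05 in eccentric MSN-like and 4 to 29 in OPC-like nuclei, an alternative chosen after seeing the data, as was the equal weighting of clusters.

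Of single genes, 370 alternative values kept their direction and 12 did not. *RPL38* in OPC-like nuclei was -0.016 by DESeq2, -0.082 with library totals, -0.049 in the 5 pooled libraries, -0.17 with equal numbers of nuclei, and -0.22 to 0.34 with libraries left out. *RPL17* in D1 MSN-like nuclei was -0.081 with ribosomal protein genes among the variable genes and -0.10 with equal numbers of nuclei. *RPL14* in astrocyte-like nuclei was 0.12 at middle depth. *RPLP1* in microglia-like nuclei was -0.052 at 1% mitochondrial UMIs, where control 4 kept 8 nuclei, and -0.013 (without *OVT73* library 2) to 0.27 with libraries left out. The cause was not tested. No paired analysis was possible because the groups hold different sheep and their replicate numbers were given in accession order. The median SE of the members was 0.20 in oligodendrocyte-like, 0.29 in eccentric MSN-like and 0.30 in neuroblast-like nuclei.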
